A study of Mus musculus with 6 samples.

Results

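HA-CDK6 binding was examined at 10 genes that encode transcription factors of the B lineage, namely Pax5, Ebf1, Tcf3, Ikzf1, Ikzf3, Foxo1, Bach2, Lef1, Irf4 and Irf8. The 10 genes were taken by name out of 21992 protein-coding genes. For each gene the window comprised the gene body, 50 kb to each side, and the promoters, where a promoter spanned 2000 bp upstream and 200 bp downstream of each annotated transcript start. The windows held 214 of the 56748 regions that resulted when overlapping peaks of the 4 libraries were merged.

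ChIP-seq was directed against the HA tag in murine pre/pro B-cell lines transformed by BCR-ABL(p185), an oncogenic tyrosine kinase. All cells came from Cdk6-/- lines of C57BL/6 bone marrow, so the tagged protein was the only CDK6 present. The CDK6-WT group (n = 2 libraries) carried HA-tagged wildtype CDK6, and the CDK6-K43M group (n = 2 libraries) carried the HA-tagged kinase-inactive mutant. Both forms were overexpressed from a retroviral vector in the absence of the endogenous gene. The titles do not state the age or sex of the mice or whether replicates came from separate lines. Any p-value below therefore measures the spread between these libraries, which may be technical. The comparison asks whether kinase activity matters for where CDK6 sits on chromatin.

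CDK6 is a cyclin-dependent kinase that pairs with D-type cyclins to drive cells from G1 into S phase, and it also binds chromatin as a co-regulator of transcription. Commitment to the B lineage rests on a network in which E2A, the product of Tcf3, together with EBF1 and FOXO1 opens the B-cell programme and PAX5 then closes other fates. The Ikaros family, BACH2, LEF1, IRF4 and IRF8 act around the pre-B stage, where cells leave the proliferative phase and rearrange their light chain genes.

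The deposited peak lists held 34729 to 39797 peaks. A median of 15 to 23 reads covered a peak summit, over a local background of 1.79 to 2.46 reads. These read numbers were recovered from the peak statistics, are not scaled to library size, and are subject to counting error. Peaks are compared by their percentile, the rank of the −log10 q-value within the own list, where 100 is the strongest peak of that list. A list holds only peaks past a threshold, so that a missing peak does not show a lack of binding. A region is called bound by both variants when at least 3 of the 4 lists have a peak in it.

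The sequence at the summit of the strongest peak is given first for regions that the results turn on. Each window covers 101 bp of the GRCm38 (mm10) reference on the strand of the gene, and capitals mark matches to the motifs listed further on. The first set shows promoter regions that differ in how strongly and in which libraries they were bound. The Pax5 and Lef1 summits lie 2154 bp and 2479 bp upstream of the nearest start, beyond the promoter span that their regions overlap.
Pax5 promoter region (chr4:44706110-44706210, minus strand): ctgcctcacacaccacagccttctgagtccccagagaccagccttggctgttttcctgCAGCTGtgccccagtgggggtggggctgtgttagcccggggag
Tcf3 promoter region (chr10:80434054-80434154, minus strand): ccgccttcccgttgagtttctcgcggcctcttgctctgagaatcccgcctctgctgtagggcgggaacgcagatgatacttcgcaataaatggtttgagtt
Bach2 promoter region (chr4:32238372-32238472, plus strand): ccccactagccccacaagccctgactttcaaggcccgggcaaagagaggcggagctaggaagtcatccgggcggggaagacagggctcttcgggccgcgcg
Lef1 promoter region (chr3:131107942-131108042, plus strand): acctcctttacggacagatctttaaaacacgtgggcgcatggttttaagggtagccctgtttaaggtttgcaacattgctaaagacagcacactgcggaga

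The second set holds the strongest region outside the own promoter for each of the 10 genes, by mean percentile among those bound by both, since most regions lay outside promoters. A mean percentile covers only the lists with a peak in the region. The Pax5 and Irf4 regions of this set have no peak in CDK6-WT replicate 1, which their means leave out.
Tcf3 intron 2 (chr10:80429897-80429997, minus strand): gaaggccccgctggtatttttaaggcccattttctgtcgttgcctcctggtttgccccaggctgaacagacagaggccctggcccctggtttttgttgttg
Ebf1 intron 10 (chr11:44950547-44950647, plus strand): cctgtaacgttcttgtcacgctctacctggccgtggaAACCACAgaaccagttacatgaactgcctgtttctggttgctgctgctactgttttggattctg
Foxo1 downstream flank (chr3:52400445-52400545, plus strand): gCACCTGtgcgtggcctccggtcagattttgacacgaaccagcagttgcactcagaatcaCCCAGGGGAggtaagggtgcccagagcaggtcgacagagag
Pax5 intron 6 (chr4:44614429-44614529, minus strand): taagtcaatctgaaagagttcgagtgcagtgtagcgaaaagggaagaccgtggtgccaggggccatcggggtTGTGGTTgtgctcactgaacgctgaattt
Ikzf1 downstream flank (chr11:11776910-11777010, plus strand): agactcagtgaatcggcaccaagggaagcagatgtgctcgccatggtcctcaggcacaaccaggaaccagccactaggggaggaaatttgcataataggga
Ikzf3 downstream flank (chr11:98459330-98459430, minus strand): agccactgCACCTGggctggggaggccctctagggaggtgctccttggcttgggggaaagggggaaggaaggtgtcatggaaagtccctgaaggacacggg
Bach2 intron 1 (chr4:32249185-32249285, plus strand): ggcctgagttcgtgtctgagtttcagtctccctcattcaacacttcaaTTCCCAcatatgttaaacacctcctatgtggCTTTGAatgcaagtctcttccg
Lef1 intron 3 (chr3:131117977-131118077, plus strand): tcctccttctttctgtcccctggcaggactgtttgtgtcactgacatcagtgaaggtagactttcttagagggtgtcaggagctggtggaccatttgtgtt
Irf4 downstream flank (chr13:30786283-30786383, plus strand): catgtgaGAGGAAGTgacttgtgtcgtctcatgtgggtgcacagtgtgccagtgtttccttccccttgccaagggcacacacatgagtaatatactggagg
Irf8 downstream flank (chr8:120757549-120757649, plus strand): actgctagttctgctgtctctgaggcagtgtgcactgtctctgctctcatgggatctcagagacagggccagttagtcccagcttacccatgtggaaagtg

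The third set gives examples of regions with a peak in both lists of 1 variant and in neither of the other.
Ebf1 intron 10, CDK6-WT lists only (chr11:44925053-44925153, plus strand): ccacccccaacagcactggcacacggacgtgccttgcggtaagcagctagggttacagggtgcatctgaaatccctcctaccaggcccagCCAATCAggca
Ikzf3 intron 3, CDK6-K43M lists only (chr11:98491691-98491791, minus strand): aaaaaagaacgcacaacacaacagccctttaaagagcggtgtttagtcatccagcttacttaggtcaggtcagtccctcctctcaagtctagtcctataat

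CDK6 occupied the promoters of nearly the whole group. The 10 genes were chosen with earlier results of these data known, so the shares below describe them and are no independent test. A promoter region bound by both variants was present at 9 of the 10 genes, all except Ikzf1, against 41.3% of all protein-coding genes. A promoter region shared by all 4 lists was present at 8 of 10, all except Ikzf1 and Ikzf3, against 33.3%. In the separate lists, 9 of the 10 genes had a promoter peak in CDK6-WT replicate 1 (47.3% of all genes), 9 in CDK6-WT replicate 2 (40.7%), 10 in CDK6-K43M replicate 1 (48.7%) and 9 in CDK6-K43M replicate 2 (39.8%). A promoter peak in any list was present at 10 of 10 (51.8%), and a region bound by both lay somewhere in the window of all 10 (69.0%). With a minimum −log10 q of 10, the genes with a promoter region bound by both numbered 4 of 10, against 17.1% of all protein-coding genes. The 10 genes had 1 to 11 annotated starts each, and more starts mean more sequence counted as promoter. The shares of all genes were not matched for this.

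Most of the binding lay away from the promoters. Of the 214 regions, 32 overlapped a promoter of the gene itself, 11 an exon, 79 an intron, 39 lay upstream and 53 downstream. Of these, 18, 4, 39, 22 and 28 were bound by both. With promoters of any protein-coding gene counted, 43 of the 214 regions (20.1%) lay over a promoter, against 29.2% of all merged regions, and 28 of the 111 bound by both (25.2%), against 43.1%. In all, 111 regions were bound by both, or 51.9% against 40.5% of all merged regions, and 81 had a peak in all 4 lists, or 37.9% against 28.9%. Regions in a single list numbered 57, or 26.6% against 32.6%. The windows differ in length and some overlap other genes, and 10 of the 50 flanking regions bound by both lay over the promoter of another gene.

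**Figure D1:**
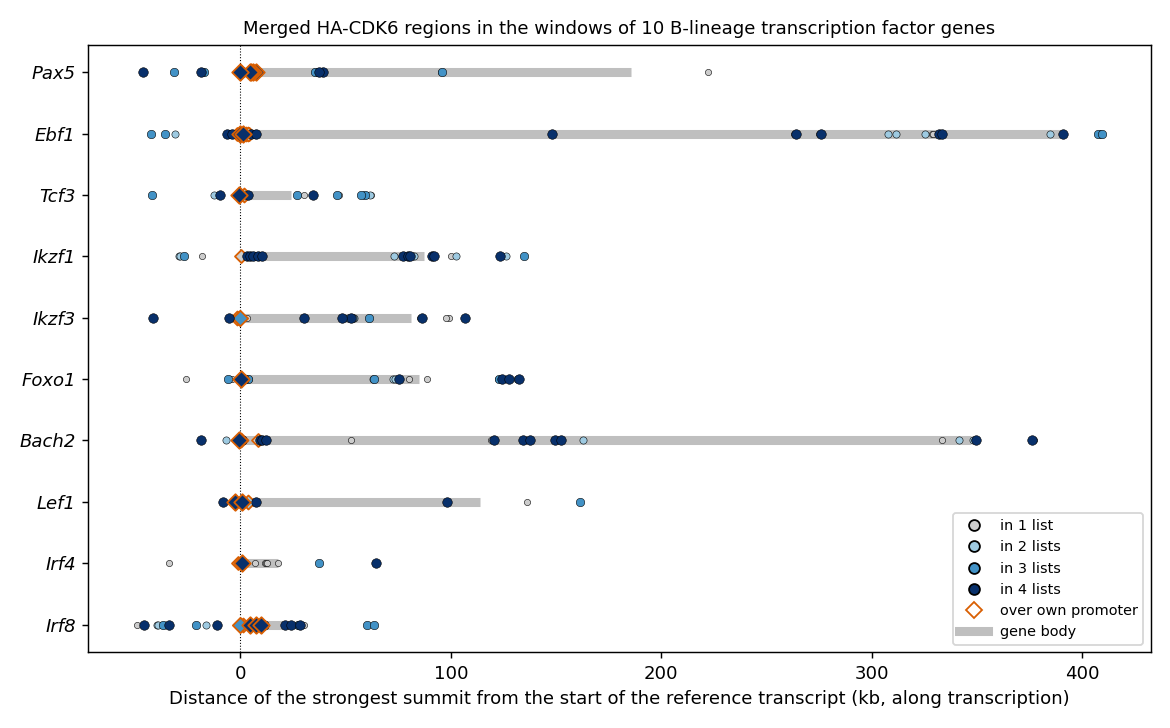
Position of the 214 merged regions along the 10 genes, as the distance in kb of the strongest summit from the start of the reference transcript, with upstream to the left. Grey bars are gene bodies, the fill gives the number of lists (1 to 4) with a peak, and diamonds mark regions over the own promoter. Dark points cluster near the start and recur along the introns and flanks, with the fewest at Irf4.

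The number of regions per window was large for these genes. The 10 windows held a median of 11.5 regions bound by both, against 2 over all protein-coding genes. Per 100 kb of window the medians were 5.11 and 1.48, and the median window lengths were 186 kb and 117 kb. Within the gene body but outside promoters the medians were 4 and 0. Irf8 stood highest with 13.3 regions bound by both per 100 kb, at the percentile 99.6 of all genes. Tcf3 had 7.25 and Ikzf1 6.92 per 100 kb. Irf4 was lowest of the group with 2.55, at the percentile 65.2, and Lef1 followed with 2.81.

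Within the windows, promoter peaks ranked at or below the other peaks in each list. The median percentile of promoter peaks was 33.7 in CDK6-WT replicate 1, where the other peaks had 43.3. In CDK6-WT replicate 2 the medians were 58.7 and 59.1, in CDK6-K43M replicate 1 they were 45.4 and 45.4, and in CDK6-K43M replicate 2 they were 49.8 and 55.4. The mean difference of promoter minus other peaks was -3.88 ± 4.54 percentile points (SD, n = 4 libraries, exact two-sided sign-flip permutation p = 0.25, where 0.125 is the smallest possible). It was negative in 3 of the 4 libraries and 0 in the other, and its sign turned with narrower promoters, with protein-coding transcripts alone and with ranking by fold enrichment. Over the windows of all protein-coding genes, the same differences were 23.1 and 24.98 in the replicate 1 libraries and 0.0 and 0.651 in the replicate 2 libraries.

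**Figure D2:**
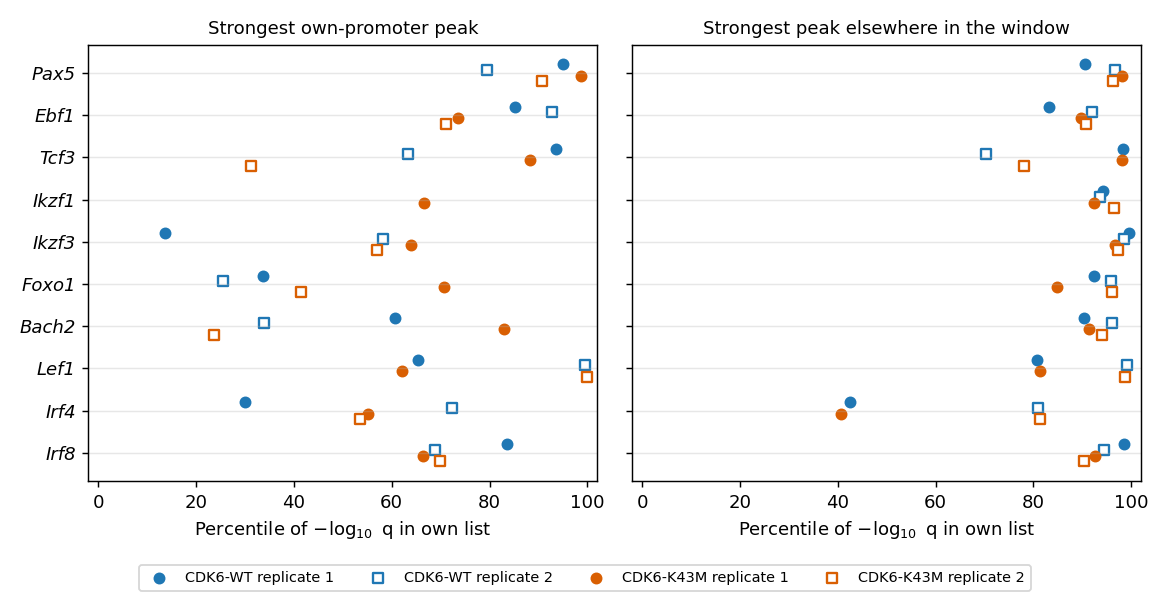
Percentile of the strongest peak over the own promoter (left) and elsewhere in the window (right) for each gene, with 1 point per library, filled circles for replicate 1 and open squares for replicate 2, blue for CDK6-WT and orange for CDK6-K43M. The strongest peak elsewhere reached percentiles of 70.2 to 99.5 in every library at all genes except Irf4. The strongest promoter peaks spread from 13.6 to 99.9, and a missing point means no promoter peak. The windows held 26 to 33 promoter peaks per list against 132 to 151 others. A maximum over more peaks tends to be higher, so the panels do not compare promoter strength.

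The genes of the factors that open the B-cell programme were each bound by both variants at a promoter and at further sites. Tcf3, which encodes the E2A proteins E12 and E47, had 17 regions, of which 9 were bound by both. Its promoter region (chr10:80433041-80434379, summit 457 bp upstream of the start) stood at percentiles of 93.6 and 63.4 with CDK6-WT and of 88.3 and 31.3 with CDK6-K43M, each time replicate 1 first. The reads at the summit were 43 and 20 with CDK6-WT against 40 and 13 with CDK6-K43M. The region in intron 2 (chr10:80429402-80430664) ranked higher, at 98.0 and 70.2 with CDK6-WT against 98.1 and 78.0 with CDK6-K43M. At both sites the replicate 1 libraries lay above the replicate 2 libraries, and the variants overlapped.

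Ebf1, whose product acts as a pioneer factor at B-cell enhancers, spans 391 kb and had the most regions, 34, with 17 bound by both. The region at its reference start (chr11:44616361-44617784) had percentiles of 85.2 and 70.2 with CDK6-WT against 73.6 and 68.9 with CDK6-K43M. The strongest other region lay in intron 10 (chr11:44950360-44950848), 333280 bp from the start. It stood at 83.2 and 78.4 with CDK6-WT against 89.7 and 88.5 with CDK6-K43M, so that here both CDK6-K43M values were above both CDK6-WT values.

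Foxo1, a target of PI3K and AKT signalling that controls Rag expression, had 22 regions with 10 bound by both. Its promoter region (chr3:52267332-52269394, over exon 1) was of moderate rank, at 33.7 and 25.5 with CDK6-WT against 70.6 and 41.5 with CDK6-K43M. The reads at its summit were 22 and 12 with CDK6-WT against 29 and 17 with CDK6-K43M. A group of 7 regions lay 122192 bp to 132159 bp downstream of the start, beyond the gene end. The strongest of them (chr3:52399969-52401856) had percentiles of 92.4 and 95.8 with CDK6-WT against 81.6 and 96.1 with CDK6-K43M.

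Pax5, which holds cells to the B lineage, had 24 regions with 15 bound by both, 5 of them over its promoters. The strongest promoter region (chr4:44705849-44706539) lay in intron 1 of the reference transcript, 2154 bp upstream of an internal start. Its percentiles were 94.9 and 57.6 with CDK6-WT against 98.7 and 90.8 with CDK6-K43M, with 44, 22, 66 and 28 reads in the same order. The strongest region elsewhere lay in intron 6 (chr4:44614131-44614728). It had no peak in CDK6-WT replicate 1, stood at 96.7 in CDK6-WT replicate 2, and had 54.3 and 96.2 in the CDK6-K43M lists. The 2 replicate 2 libraries were thus highest, with 44 and 39 reads.

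The Ikaros family genes were bound mainly in introns and flanks. Ikzf1 encodes Ikaros, a zinc finger factor that restrains pre-B cell growth, and it is the gene without a promoter region bound by both. Its only promoter region had a peak in CDK6-K43M replicate 1 alone, at the percentile 66.7 with 28 reads. Yet Ikzf1 had 13 regions bound by both among 24, of which 8 lay in introns, and 11 regions had a peak in all 4 lists. The region just inside intron 1 (chr11:11688888-11689560, 3200 bp from the start) stood at 73.2 and 93.7 with CDK6-WT against 86.6 and 84.9 with CDK6-K43M. The strongest region (chr11:11776739-11777438) lay downstream of the gene end, with 83.6 and 92.7 with CDK6-WT against 88.8 and 94.5 with CDK6-K43M, and the variants overlapped at both.

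Ikzf3 encodes Aiolos, which takes over from Ikaros as pre-B cells mature. It had 19 regions, 9 bound by both. Its promoter region bound by both (chr11:98545540-98546240) was weak, at 13.6 in CDK6-WT replicate 1, without a peak in CDK6-WT replicate 2, and at 64.0 and 9.24 for CDK6-K43M. By contrast, a region downstream of the gene (chr11:98457236-98460190) had the highest mean percentile of all 214, at 99.5 and 89.9 with CDK6-WT against 96.8 and 91.0 with CDK6-K43M. The next was in intron 3 (chr11:98492749-98494180), at 83.9 and 98.5 with CDK6-WT against 90.3 and 97.3 with CDK6-K43M.

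Bach2 encodes a repressor that works at the pre-B cell receptor checkpoint. It had 25 regions with 13 bound by both, and all 13 had a peak in all 4 lists. The promoter region (chr4:32238171-32238805) had 60.6 and 34.0 with CDK6-WT against 83.0 and 23.6 with CDK6-K43M. The region in intron 1 (chr4:32248931-32249565) was more even, at 90.3 and 91.3 with CDK6-WT against 85.01 and 92.4 with CDK6-K43M. In the promoter the replicate 1 libraries were higher than the replicate 2 libraries.

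Lef1, a mediator of WNT signals that is on in pro-B cells, had only 9 regions, of which 2 at the promoter were broad and the others were 192 bp to 885 bp wide. The promoter region (chr3:131105634-131110032) was 4399 bp wide and the region over the start 3542 bp. The 4399 bp region had its strongest summit 2479 bp upstream of the start. It stood at 59.8 and 99.4 with CDK6-WT against 74.2 and 99.9 with CDK6-K43M. The reads were 26 and 72 with CDK6-WT against 37 and 78 with CDK6-K43M. In CDK6-K43M replicate 1 the peak with the value of 74.2 lay outside the promoter window, where the highest promoter peak of Lef1 had 62.2. A region over the start and exon 1 followed, and another in intron 3 (chr3:131117617-131118501) had 80.7 and 99.2 with CDK6-WT against 81.3 and 98.7 with CDK6-K43M. In each of these the replicate 2 libraries of both variants were near the top of their lists and the replicate 1 libraries were not.

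The interferon regulatory factors differed from each other. Irf4 and Irf8 share functions in pre-B cells, where they promote light chain rearrangement. Irf4 had 13 regions but only 3 bound by both and 8 in a single list. Its promoter region (chr13:30748320-30750256) had percentiles of 30.03 and 72.2 with CDK6-WT against 55.2 and 80.8 with CDK6-K43M. In CDK6-K43M replicate 2 the peak with that value lay outside the promoter window. Outside the promoter the highest values were 42.5 and 81.0 with CDK6-WT against 40.7 and 81.3 with CDK6-K43M. They came from a different region in each list and do not compare 1 site. The downstream region with the highest mean percentile (chr13:30786179-30786705) had no peak in CDK6-WT replicate 1. It stood at 70.2 in CDK6-WT replicate 2 and at 13.7 and 81.3 in the CDK6-K43M lists.

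Irf8 had 27 regions within 120 kb, 16 of them bound by both, 11 of which lay in the flanks. The promoter region with the highest mean percentile (chr8:120745359-120746727) lay in intron 4 of the reference transcript, near an internal start, at 74.4 and 94.5 with CDK6-WT against 87.5 and 53.5 with CDK6-K43M. In CDK6-WT replicate 2 and CDK6-K43M replicate 1 the peak with that value did not itself reach the promoter window. The region at the canonical start (chr8:120735937-120736843) had percentiles of 83.7 and 3.06 for CDK6-WT, 66.4 for CDK6-K43M replicate 1 and no peak in CDK6-K43M replicate 2. A region downstream of the gene (chr8:120757148-120758603) stood at 98.4 and 92.2 with CDK6-WT against 92.5 and 85.3 with CDK6-K43M. The whole Irf8 window overlaps the gene model Gm20388, so that its flanking regions lie within another annotated transcript.

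**Figure D3:**
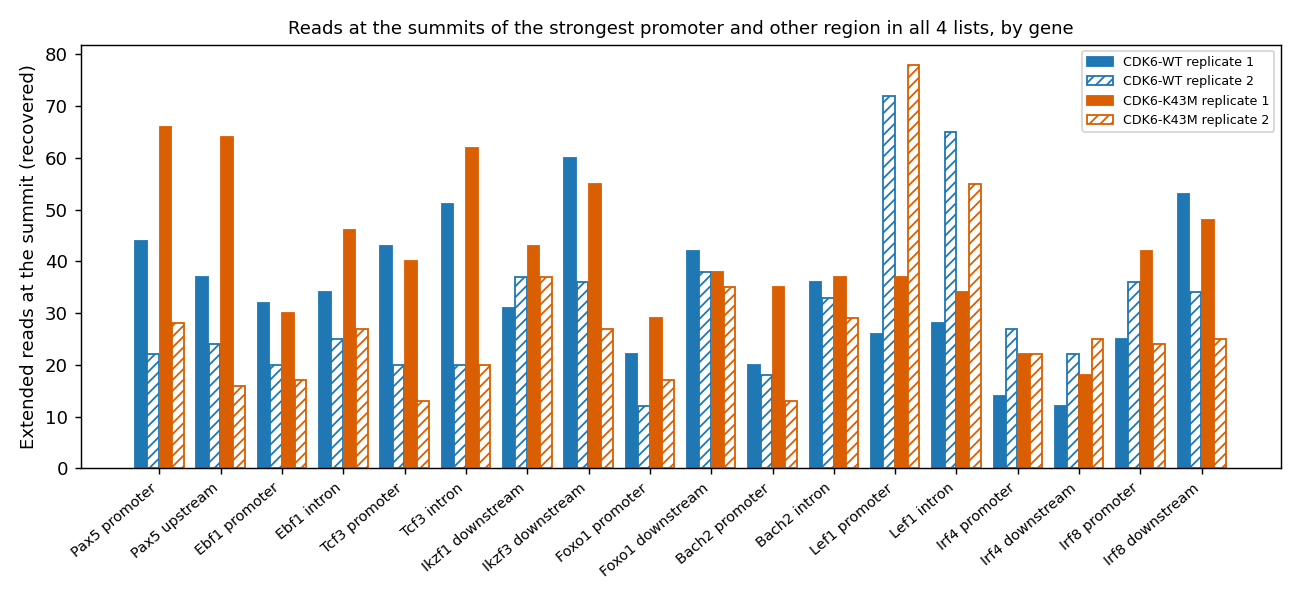
Reads at the summit of the strongest own-promoter region and the strongest other region with a peak in all 4 lists, for each gene that has them, as whole reads recovered from the peak statistics and not scaled to library size, with 1 bar per library, solid for replicate 1 and hatched for replicate 2. The Lef1 promoter region has 26 and 37 reads in the replicate 1 libraries against 72 and 78 in the replicate 2 libraries, and the Tcf3 promoter has 43 and 40 against 20 and 13. Peaks outside the promoter window give the 37 reads at Lef1 and some values of Irf4 and Irf8.

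The variants were then compared. The windows held 159 and 164 peaks with CDK6-WT against 168 and 184 with CDK6-K43M, with means of 161.5 ± 3.54 and 176 ± 11.3 (SD, n = 2 each). CDK6-K43M thus had 14.5 more peaks on average (two-sided exact permutation test, p = 0.333, which is the lowest value this design can reach). The CDK6-K43M lists were also longer as a whole. As a share of the own list the windows took 0.452% and 0.472% with CDK6-WT against 0.422% and 0.493% with CDK6-K43M, a difference of -0.0043 percentage points (exact permutation p = 1). Within replicate 1 the share was different by -0.0297 points (CDK6-K43M minus CDK6-WT), and within replicate 2 by 0.021 points.

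At regions with a peak in all 4 lists, the mean percentile was 60.6 and 72.0 with CDK6-WT against 62.5 and 70.8 with CDK6-K43M. The difference of 0.289 percentile points lay within the spread between replicates (exact permutation p = 1, n = 2 each). It was 1.85 within replicate 1 and -1.27 within replicate 2. Compared within each replicate number, CDK6-K43M was higher under both numbers at 22 of the 81 regions and lower under both at 20. Both CDK6-K43M values were above both CDK6-WT values in 4 of the 81 regions (4.94% against 9.8% of such regions in the genome) and below them in 5 (6.17% against 5.08%). The 4 were the Foxo1 promoter region, the Ebf1 intron 10 region, a region 6224 bp upstream of Ebf1 and a region downstream of Irf8 (chr8:120759814-120760681). In the last of these the percentiles were 60.01 and 38.1 with CDK6-WT against 83.9 and 88.2 with CDK6-K43M. The 5 lower ones lay in introns of Ebf1, Ikzf1 and Bach2 and at a promoter and downstream of Irf8. With 2 libraries per variant no single region can pass a test over libraries.

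Few regions had a peak in both lists of 1 variant and in neither list of the other, here called unique to that variant. The 57 regions in a single list do not count as unique, although their peak also came from 1 variant. A single region was unique to CDK6-WT (0.467% of the 214, against 0.359% of all regions) and 3 were unique to CDK6-K43M (1.4% against 1.26%). The CDK6-WT region lay in intron 10 of Ebf1 (chr11:44924978-44925260), at the percentiles 32.4 and 6.68 with 16 and 11 reads. Of the CDK6-K43M regions, 1 lay downstream of Ebf1 (chr11:45025908-45026332), at 14.8 and 4.16. The other 2 lay in intron 3 of Ikzf3, at 40.7 and 62.0 (chr11:98491624-98491897) and at 2.78 and 20.7 (chr11:98492163-98492506). The second of them ended 242 bp before the strong intron 3 region of Ikzf3 that all 4 libraries shared. No promoter of the 10 genes held a region unique to a variant.

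**Figure D4:**
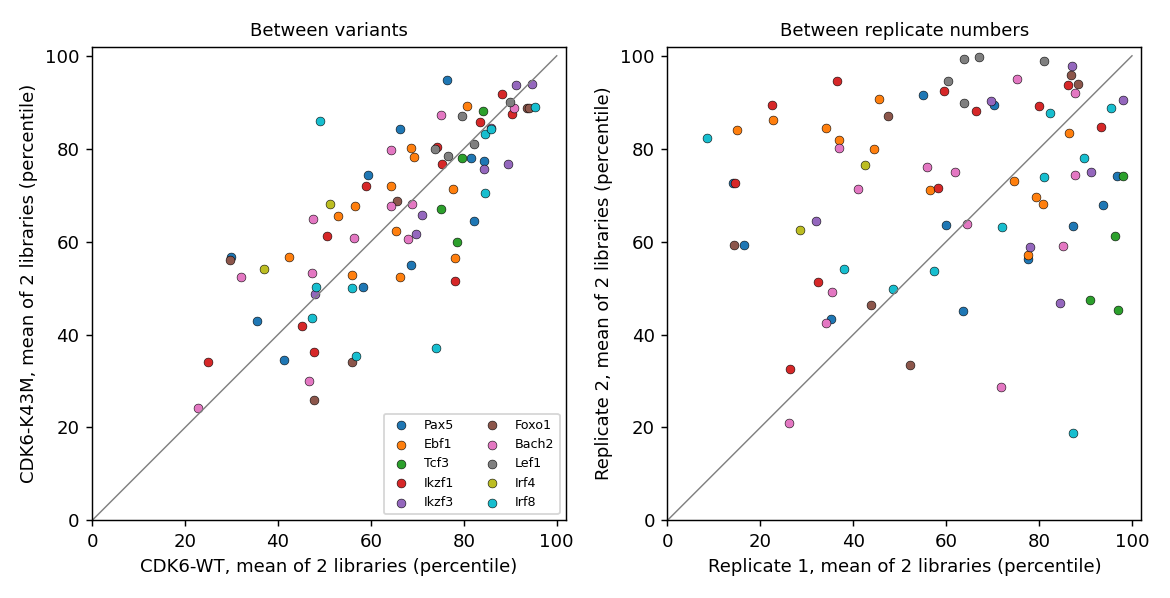
Percentiles of the 81 regions with a peak in all 4 lists, as means of 2 libraries, for CDK6-K43M against CDK6-WT (left) and for replicate 2 against replicate 1 (right), coloured by gene, with the line of equal values. The points lie closer to the line on the left, where the median absolute difference is 7.42 percentile points, than on the right, where it is 20.3.

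The libraries differed more by replicate number than by variant. The median absolute difference over the 81 regions was 20.3 percentile points between the replicate numbers and 7.42 between the variants. Both replicate 2 values were above both replicate 1 values in 36 regions (44.4% against 29.7% in the genome) and below them in 19 (23.5% against 41.1%). The direction differed between genes. All 5 such Lef1 regions were higher in replicate 2, by a mean of 29.3 points, as were both Irf4 regions, by 34.0 points. All 4 Tcf3 regions were lower in replicate 2, with a mean difference of -38.6 points. At Ikzf1, Ebf1 and Foxo1 the means were 25.8, 22.9 and 13.8 points higher in replicate 2, whereas at Irf8, Ikzf3, Bach2 and Pax5 the means lay between -2.37 and 5.10.

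Peak numbers on whole chromosomes moved as well. The ratio of replicate 2 to replicate 1 peaks was 1.28 on chromosome 13, which holds Irf4, 1.1 on chromosome 3, which holds Foxo1 and Lef1, 0.984 on chromosome 4, which holds Pax5 and Bach2, 0.915 on chromosome 11, which holds Ebf1, Ikzf1 and Ikzf3, 0.903 on chromosome 10, which holds Tcf3, and 0.78 on chromosome 8, which holds Irf8. Over all chromosomes it was 0.961. On chromosome 11 the ratio was thus below that of all chromosomes, although the shared regions of Ebf1 and Ikzf1 had higher mean percentiles in replicate 2. The titles do not say what the replicate number marks, and the part of these differences in the gene-level values was not tested. Regions in both lists of 1 replicate number and neither of the other counted 15 for replicate 1 (7.01% against 13.0%) and 24 for replicate 2 (11.2% against 11.0%).

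Regions found in fewer lists were weaker. The median percentile of the peaks was 13.4 for the regions in 1 list, 41.1 in 2 lists, 41.9 in 3 lists and 72.1 in 4 lists. The median reads at the summit were 13, 16, 18 and 25. Regions in a single list counted 8 and 12 with CDK6-WT against 15 and 22 with CDK6-K43M. The CDK6-K43M lists were longer as a whole, with 39797 and 37304 peaks against 35189 and 34729 with CDK6-WT. Regions in a single list were not counted per library over all merged regions. Whether the higher CDK6-K43M counts are particular to these windows was therefore not tested.

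Further genes of the B-cell network were counted in the same way. Of 20 other B-lineage regulators, 19 had a promoter region bound by both. The exception was Ikzf2, which encodes Helios, a member of the Ikaros family, and which had no region in its window. The strongest were Bcl11a, Mef2c and Pou2af1, with mean percentiles of 91.3, 85.7 and 83.8. Among 16 target genes of these factors, 14 had one, led by Igll1 and Vpreb1, which encode the surrogate light chain, at 96.1 and 95.9, and by Cd72 at 91.1. At Rag1 and Dntt, which act in V(D)J recombination, promoter peaks were found in the replicate 2 lists alone.

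Markers of the labelled cell type and of other lineages were examined. Of 8 B-lineage progenitor markers, all of which are also in the list of target genes, 6 had a promoter region bound by both. The same held for 1 of 5 T-cell genes, Gata3, and for 0 of 5 erythroid and megakaryocyte, 0 of 5 myeloid and 0 of 5 NK and innate genes. All 4 lists of other lineages had regions bound by both somewhere in the window at 4 of their 5 genes, against 69.0% of all genes. No promoter peak was present in any list at Bcl11b, Cd3e, Cd4, Gata1, Klf1, Cebpa, Csf1r, Csf3r or Mpo, nor at the 5 NK and innate genes. The other 3 erythroid and megakaryocyte genes, Tal1, Gata2 and Itga2b, had promoter peaks in CDK6-K43M replicate 2 alone. Cebpe had them in both replicate 1 lists alone, and Tcf7 in CDK6-WT replicate 2 alone. The lists record binding and not expression.

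**Figure D5:**
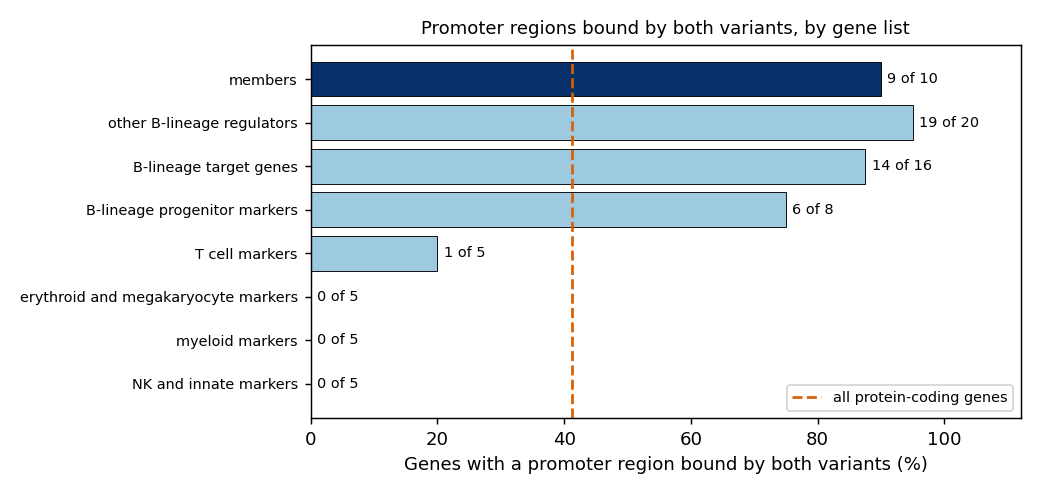
Share of genes in percent with a promoter region bound by both variants, by gene list, with counts beside the bars and the share of all protein-coding genes (41.3%) as a dashed line. The 10 genes and the other B-lineage lists lie above the line and the lists of other lineages below it. The genes and lists were chosen with earlier results of these data known.

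Several strong flanking regions belonged to promoters of neighbours. The region 46130 bp upstream of Pax5 lay over the promoter of Zcchc7, with a mean percentile of 80.8, and one 34631 bp downstream of the Tcf3 start lay over Mbd3, a subunit of the NuRD complex, at 78.7. The region at Fignl1 beyond Ikzf1 had 88.9, the region at Ormdl3 beside Ikzf3 had 83.1, and the region at Casp8ap2 beyond Bach2 had 81.1. These regions had peaks in all 4 lists and cannot be assigned to the transcription factor gene from position.

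Short motifs were counted on both strands within 100 bp of the summit of the 111 regions bound by both, and in windows of the same length at 22975 such regions in the genome. The E-box CAGCTG, which E2A and other bHLH proteins bind, was found in 19.8% of the windows against 19.7%, and the E-box CAGGTG in 14.4% against 15.5%. The EBF motif CCCNNGGGA was found in 9.91% against 11.0%, the RUNX motif TGTGGTT in 9.91% against 9.39%, and the IKZF motif TGGGAA in 14.4% against 15.4%. The PU.1 motif GAGGAAGT had 8.11% against 6.33%, the ETS motif CCGGAAG 7.21% against 8.96%, the TCF/LEF motif CTTTGA 9.01% against 11.2%, and the STAT motif TTCNNNGAA 4.5% against 7.53%. Of these shares, that of STAT, at 5 of the 111 summits, lay furthest below bound regions elsewhere, and the others lay nearer. The IRF motif, listed with the rarer motifs below, lay at least as far below, at 0 of 111 against 3.05%. Fewer of the 111 regions lay over a promoter (25.2% against 43.1%), so location and motif are mixed in these shares. For STAT the share was 4.82% against 9.15% outside promoters and 3.57% against 5.39% at promoters. The differences were not tested.

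The rarer motifs were found at few summits. The composite ETS-IRF motif, GGAA and GAAA with 2 free bases between them, which can overlap the ETS and PU.1 motifs, was found in 5.41% against 4.56%. The IRF motif, GAAA and GAAA with 2 free bases between them, was at 0 of the 111 summits against 3.05% in the genome, the NRF-1 motif, GCGCA joined to its reverse complement, at 0 against 0.923%, the FOXO motif TGTTTAC at 1.8% against 2.43% and the NFY motif CCAATCA at 1.8% against 3.36%. In the windows printed above, the Pax5 promoter region holds CAGCTG, the Pax5 intron 6 and Ebf1 intron 10 regions hold the RUNX motif or its reverse complement, and the downstream region of Foxo1 holds the EBF motif and an E-box. The windows of the Tcf3, Bach2 and Lef1 promoter regions hold none of the listed motifs. Such matches describe the sequence and do not show which factor is bound.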

How the data were processed

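HA-CDK6 ChIP-seq was performed with 2 libraries per variant, and 2 input libraries were not analysed here. The titles gave the variant and the replicate number of each sample. The authors trimmed reads with Trimmomatic 0.36 after FastQC 0.11.5, aligned them to mm10 with BWA 0.7.15, filtered them with SAMtools 1.3.1 and bedtools (removal of blacklisted regions), and called peaks per library, not on pooled replicates, with MACS2 2.1.0. The deposited lists give a fold enrichment (a ratio to local background), a −log10 p-value, a −log10 q-value, a score (10 times the latter, truncated to a whole number), and other information, the summit offset. The deposited −log10 q starts at 1.31 to 1.34. Lists hold no read totals, so depth is known only through summit reads. These were solved from the fold and −log10 p for 100% of the peaks (within 0.001 of the −log10 p) and were tested on simulated data, as was the merging.

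Peaks overlapping by 1 bp were merged. A region was placed at the first of promoter, exon, intron and flank that applied, by any GENCODE M21 transcript of the gene (mm10). A region takes the strongest peak per list. The study used DiffBind for this step, and plain merging of intervals was used here. Regions unique to a variant had peaks in both of its libraries and in neither of the other. Named regions are, per gene, the promoter region and the other region with the highest mean percentile among those bound by both, and every variant-unique region. The further regions were chosen after their values were seen. Genes of the other lists were named by the 3 highest mean percentiles or a promoter without a region bound by both. The members and lists were chosen with earlier results of these data known. Differences between libraries were tested with exact permutation tests (6 assignments). The alternatives tried were −log10 q of at least 5 or at least 10, equal list lengths, other promoters, flanks of 10 or 100 kb, merging within 500 bp, extended summits, ranking by fold, the replicate number as a block, and the omission of each library in turn. Python 3.11.15, pandas 2.3.3, scipy 1.17.1 and pysam 0.24.0 were used.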

Additional observations from a re-analysis of the deposited data

How the results depend on the processing

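Over 7 results, 94 alternative values were computed, of which 64 kept the direction of a difference or, for a count, stayed within 1.5 times the reported one. Part of the 64 could not differ. The promoter settings leave the window counts unchanged, merging leaves the peak numbers unchanged, and the replicate block leaves the mean differences unchanged. The 64 therefore overstate how stable the results are. The genes with a promoter region bound by both, 9 as reported, were down to 4 with −log10 q of at least 10, and the regions bound by both, 111 as reported, numbered 45, since fewer peaks enter. Regions unique to CDK6-WT, 1 as reported, numbered 2 at a minimum of 5 and at 10, with 100 kb flanks and with peaks merged within 500 bp, and 4 with extended summits or with lists of equal length. Regions unique to CDK6-K43M, 3 as reported, numbered 0 at a minimum of 10 and with peaks merged within 500 bp, 1 with equal lists, 6 with 100 kb flanks and 7 with extended summits. Without 1 library they numbered 7 to 14 for CDK6-WT and 11 to 26 for CDK6-K43M. There the variant with 1 library left needed a peak, or a lack of one, in that library alone. This rule is looser than the reported one, so these counts are not on the same footing. Which variant had more unique regions therefore changed with the setting. The difference in window peaks, 14.5 as reported, was 1.0 at a minimum of 5, -0.5 at a minimum of 10, 4.5 with 10 kb flanks and -4.5 with equal lists, and 6.5 to 22.5 without 1 library. The difference in percentile at shared regions, 0.289 as reported, was -0.126 at a minimum of 10 and -0.502 with ranking by fold, 0.0129 with peaks merged within 500 bp, and ran from -7.38 (without CDK6-WT replicate 1) to 5.74 (without CDK6-WT replicate 2), with -1.81 without CDK6-K43M replicate 2. The promoter minus other difference of -3.88 was 3.41 with promoters 500 bp to each side of the start, 0.0407 with protein-coding transcripts alone and 0.571 with ranking by fold. Unless stated, the cause was not tested. None of these tests could have passed a threshold of 0.05. With the replicate number as a block, the pairing gave mean differences of 14.5 peaks (9 and 20 within the numbers, exact sign-flip permutation p = 0.5, the smallest possible) and 0.289 percentile points (1.85 and -1.27, exact p = 1). The labels do not say what the number marks, and 2 pairs cannot establish a pairing.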
